A study of Mus musculus with 24 samples.

Results

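Short ERVL copies are the loci of the endogenous retrovirus family ERVL in the mouse genome whose annotated length is under 2000 bases. They were taken from a table of 4929385 repeat loci by the family name ERVL, which leaves out the related ERVL-MaLR group, and by end minus start. The table holds 92783 such loci, and 41994 of them had a value that is not 0 in at least 1 genotype and labelling time. These 41994 copies are described here. Of them, 5931 had enough reads to be tested one by one. For comparison, 967 ERVL loci were 2000 bases or longer, of which 912 had reads and 770 were tested.

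Newly made RNA was measured in E14TG2a, a mouse embryonic stem cell line. Cells were given the uridine analog EU (5-ethynyl uridine) at 1 mM for 10, 20, 40 or 60 min, and the RNA carrying it was isolated through a click reaction and sequenced, with EU-labelled Drosophila RNA as spike-in. Medium was the same for all groups and held serum, LIF, the MEK inhibitor PD0325901 and the GSK3 inhibitor CHIR99021. The 3 genotypes were WT, a knockout of the RNA demethylase gene Alkbh5 (KO), and cells whose Alkbh5 lacks the C-terminal intrinsically disordered region (dcIDR, written Alkbh5 del-cIDR in the labels). Each genotype and time had 2 libraries, 24 in all. The labels do not say whether more than 1 clone stood behind a genotype or whether libraries came from separate cultures, and the spread behind each p-value may thus be technical only. A library is called A where it had more spike-in reads than its partner and B where it had fewer.

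Endogenous retroviruses are remains of retroviral insertions. A complete copy has an internal coding part between a pair of long terminal repeats (LTRs), which carry the promoter, and recombination between both LTRs leaves a solo LTR. The mouse ERVL element MERVL is known for its transcription in embryos at the 2-cell stage and in rare 2-cell-like cells of stem cell cultures, where the transcription factor Dux drives it together with genes such as Zscan4. ALKBH5 removes the N6-methyl mark from adenosines of RNA. The repeat loci carry class, family and position only, so MERVL copies could not be told from other ERVL copies by name, and older ERVL elements make up much of the family.

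Repeat reads per library numbered 3654850 to 22124410, and spike-in reads 6037 to 23382. Alkbh5 had reads in every library, with a normalised level of 1082 to 2081 in WT, 723 to 1190 in KO and 663 to 1474 in dcIDR libraries. The summed level of 10 stem cell markers ranged from 40503 to 55536, and that of 5 fibroblast markers from 20.9 to 73.5. That of 4 neural markers was 1782 to 2404 in WT, 3146 to 4596 in KO and 1279 to 1749 in dcIDR; 3 of the 4 were called higher in KO and 2 lower in dcIDR, and their part in the results on ERVL copies was not tested. Those of 5 trophoblast and 5 primitive endoderm markers overlapped between WT and both mutants. Single markers did differ. In KO 1 trophoblast and 2 primitive endoderm markers were lower and 0 higher. In dcIDR 1 trophoblast marker was higher, while Krt8 (trophoblast, log2 -2.23) and Dab2 (primitive endoderm, -1.62) were lower. Of the 10 stem cell markers 2 were higher and 4 lower in KO, and 1 higher and 3 lower in dcIDR. Among all genes 14.9% were higher and 15.9% lower in KO, and 10.7% and 15.5% in dcIDR. The 5 libraries with the fewest repeat reads, 3654850 to 6414984, were both dcIDR libraries at 10 min, library B of WT and of KO at 10 min, and library B of KO at 20 min. These 5 stood apart in their reads on long ERVL loci and on the short copies near them: long ERVL loci took 0.555 to 0.643% of their repeat reads, against 0.192 to 0.455% in the other 19, and short copies within 50 bases of one 0.0447 to 0.0503%, against 0.0228 to 0.0366%. The counts over all tested copies within 1000 bases of a long locus are therefore given with and without them, and finer splits with all libraries.

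Most short ERVL copies were barely read. Over all 24 libraries together, 18328 of the 41994 copies had under 10 reads, 14284 had 10 to 99 and 9382 had 100 or more, of which 1548 had 1000 or more. The median copy had 14 reads. A library had reads on 11232 to 21278 copies and 69013 to 421693 reads on all of them. The 5931 tested copies held 83.2% of these reads, and the 100 copies with the most reads held 10.7%. A copy was tested where its mean level was at least 10 and its level was above 0 in at least 6 libraries; a level is the number of reads after every library is set to 11714 spike-in reads.

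Longer copies had reads more often. Reads were found at 29.5% of the copies under 100 bases, 42.0% of those of 100 to 300 bases, 55.2% at 300 to 400, 63.2% at 400 to 600, 58.8% at 600 to 1000 and 65.3% at 1000 to 2000 bases. The median length was 261 bases among copies with reads and 355 among those tested. The commonest length was 492 bases with 767 loci, and 562 loci were 491 bases long. Of these 1329 loci, 1252 (94.2%) had reads. Among the 809 of them that lay within 1000 bases of a long ERVL locus, 99.5% had reads, and among the 520 farther away 447 had.

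The 6 copies with the highest mean level lay on 5 chromosomes (coordinates in GRCm39, as the locus names give them). Highest was a copy of 158 bases at chr2:162915157-162915315, with a mean level of 1010 and 6355 per 1000 bases. Its normalised level, which is set to the median tested locus of each library, was 517 to 1038 in WT with a median of 887, 391 to 916 in KO with a median of 665, and 614 to 1349 in dcIDR with a median of 848. The genotypes overlapped at this copy, and neither difference from WT passed the test. Compared directly, dcIDR was higher than KO by a log2 difference of 0.44 ± 0.13 (SE; limma adjusted p = 0.0317). Next came a copy of 1816 bases at chr17:45751112-45752928 with a mean level of 885 but 487 per 1000 bases; it lies 171 bases from a long ERVL locus. At chr14:63730450-63730930 the mean level was 837, and this copy was lower in KO than in WT by a log2 difference of -0.59 ± 0.12 (SE, 8 libraries per genotype; limma adjusted p = 0.0113). Its normalised level was 404 to 1017 in WT and 246 to 748 in KO, so the libraries overlapped. The other 3 copies, at chr14:31908553-31909053, chr5:53773018-53773379 and chr9:40110811-40111905, had mean levels of 611, 608 and 592 and did not pass the test in either mutant.

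As a whole, short ERVL copies took nearly the same part of the repeat reads in every library, 1.82 to 2.03%. The WT pairs, in order of labelling time, had shares of 1.91 and 1.90%, 1.93 and 1.97%, 1.93 and 2.03%, then 1.89 and 1.93%. KO libraries had 1.91 to 2.00% and dcIDR libraries 1.82 to 2.03%, so the 3 genotypes overlapped. Averaged over the 4 times, the log2 difference of this share was 0.005 for KO minus WT and -0.022 for dcIDR minus WT, where the SD between libraries of a group was 0.030.

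Measured against the spike-in instead, the summed level was higher at 60 than at 10 min in every genotype. It went from 100897 ± 19447 (SD, n = 2) to 378618 ± 82485 in WT, from 164283 ± 24769 to 462435 ± 36385 in KO and from 62245 ± 7045 to 390899 ± 77257 in dcIDR, which was highest at 40 min with 459024 ± 92441. The log2 difference of KO minus WT was 0.31 averaged over times, with 0.71, 0.30, -0.07 and 0.30 at 10, 20, 40 and 60 min. For dcIDR minus WT it was 0.12, with -0.69, 0.77, 0.34 and 0.05. These differences were close to or under the SD between libraries of a group, 0.29, except at 10 min and, for dcIDR, at 20 min.

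**Figure D1:**
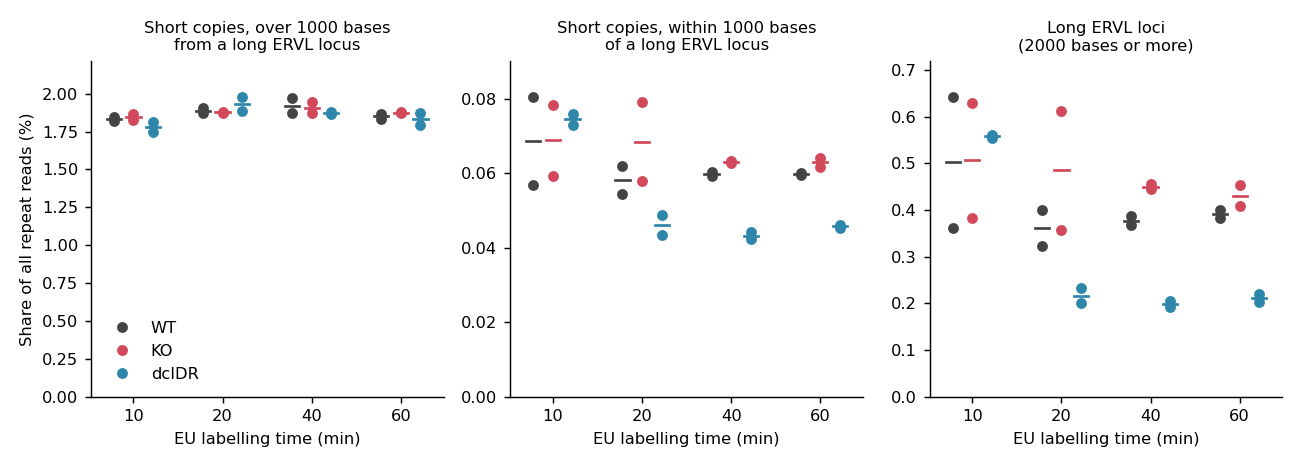
Share of all repeat reads (%, y axis) by EU labelling time (min, x axis) for short copies over 1000 bases from a long ERVL locus, short copies within 1000 bases of one, and the long loci themselves. Each point is 1 library and each bar the mean of the 2 libraries of a group; the first set stays between 1.75 and 1.98% in every library, while in the other sets the dcIDR libraries lie below the WT libraries at 20, 40 and 60 min but not at 10 min.

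In KO, short ERVL copies did not change as a family, but 320 single copies differed from WT. Relative to the median tested locus, 118 of the 5931 tested copies were higher (1.99%) and 202 lower (3.41%), by limma with Benjamini-Hochberg adjustment over all 306027 tested repeat loci. Among all those loci 1.86% were higher and 2.99% lower, 4.85% in all, so the share among short copies was near the background. Their median log2 difference was -0.02, beside -0.03 over all tested loci. On the deposited spike-in scale, on which the median locus is 0.32 higher in KO, the split was 345 higher and 52 lower. The share of all tested loci called on that scale is not given here. At least 1.5 times fewer copies passed when any of 6 libraries was left out: 202 or 198 without either WT library at 40 min (B and A), 195 or 202 without those at 60 min (B and A), 210 without KO library B at 40 min and 192 without KO library B at 60 min.

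The copies that fell most in KO lost most of their reads. At chr7:26101409-26101898 (489 bases) the normalised level was 67.4 to 124 in WT with a median of 93.5, 3.37 to 19.5 in KO with a median of 12.9, and 28.6 to 53.4 in dcIDR with a median of 43.3. The 3 genotypes did not overlap at this copy. Its log2 difference was -3.02 ± 0.18 in KO (adjusted p = 6.04e-08) and -1.13 ± 0.18 in dcIDR (adjusted p = 0.00252). An 84-base copy at chr11:101506127-101506211 ranged from 22.2 to 43.1 in WT (median 36.8), from 0 to 8.57 in KO (median 4.89) and from 24.6 to 49.8 in dcIDR (median 40.8). Here every KO library lay below every other library, and the difference was -3.06 ± 0.36 (adjusted p = 8.44e-05).

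A pair of neighbouring copies on chromosome 4 fell together. The copy at chr4:26292246-26292454 had 40.4 to 70.0 in WT and 3.37 to 9.56 in KO, a difference of -2.96 ± 0.14 (adjusted p = 7.12e-09). The copy at chr4:26292904-26293160, which starts 450 bases after the other ends, had 49.2 to 69.3 in WT and 3.10 to 12.9 in KO, a difference of -2.98 ± 0.19 (adjusted p = 1.05e-07). In dcIDR they ranged from 39.3 to 62.8 and from 23.4 to 70.9, and neither passed the test. Such neighbours may be parts of 1 transcript and are not independent of each other. Falls of -2.53 ± 0.31 at chr5:104879983-104880194 and -2.29 ± 0.31 at chr8:4639029-4639454 completed the 6 largest. All 6 kept their call with any 1 library left out.

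The largest rises in KO were smaller and came from copies with few reads. At chr6:53824854-53825290 (436 bases) WT libraries had 0 to 11.5 with a median of 6.19, KO libraries 15.4 to 30.6 with a median of 22.4, and dcIDR libraries 8.19 to 20.0 with a median of 13.8. KO did not overlap WT, and the difference was 1.94 ± 0.30 (adjusted p = 0.00109). This copy was also among the largest rises in dcIDR, at 1.34 ± 0.30 (adjusted p = 0.0247). The other 5 were at chr8:48807226-48807506 (1.46 ± 0.37), chr8:107587781-107588746 (1.44 ± 0.26), chr6:83669695-83669837 (1.43 ± 0.22), chr6:60427654-60428126 (1.41 ± 0.35) and chr11:17202897-17203423 (1.36 ± 0.34). The calls at chr8:48807226-48807506, chr6:60427654-60428126 and chr11:17202897-17203423 were lost when any of 11, 10 and 9 libraries was left out, with adjusted p-values up to 0.0880, 0.0806 and 0.0739.

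**Figure D2:**
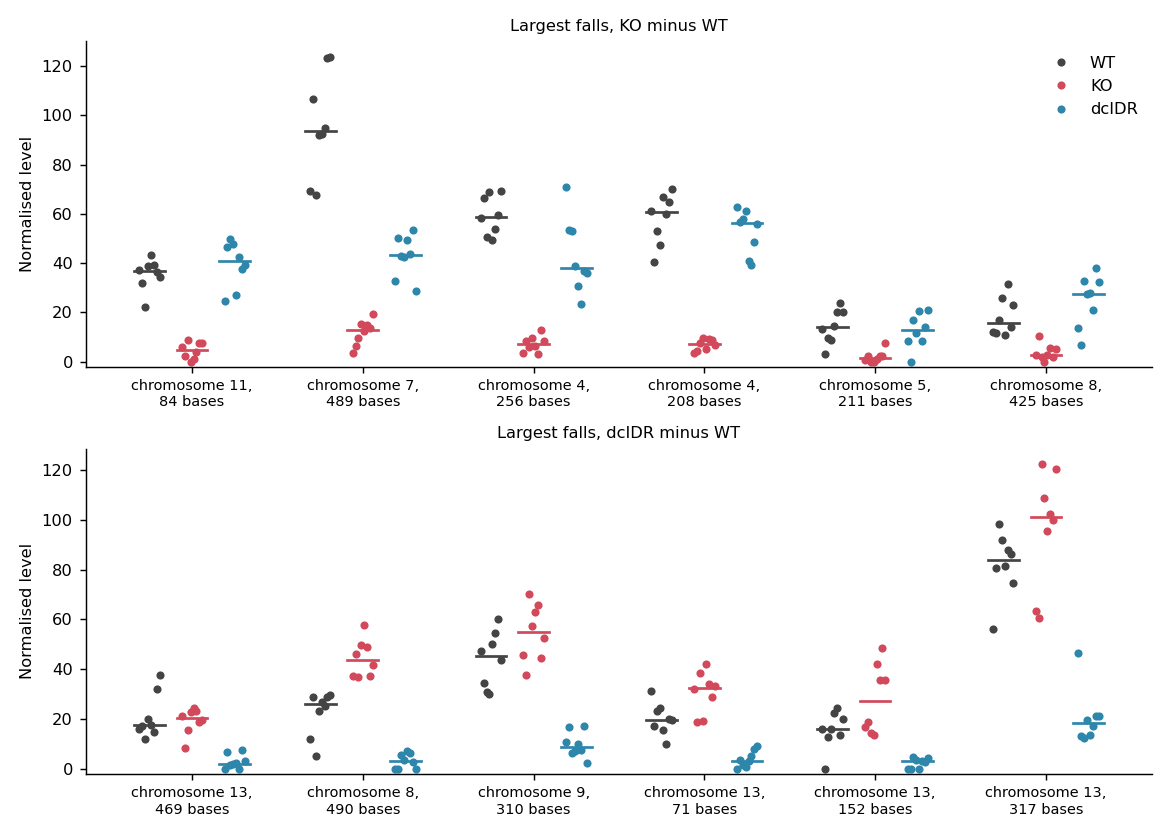
Normalised level (y axis, linear, relative to the median tested locus) of the 6 copies with the largest fall in KO (top) and in dcIDR (bottom), named by chromosome and length. Each point is 1 of 8 libraries per genotype and each bar their median; the KO libraries lie below all WT libraries at 5 of the 6 copies in the top panel, and the dcIDR points lie lowest in the lower panel, apart from WT libraries at or near the dcIDR range for the 490-base and 152-base copies.

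Calls in KO were spread unevenly over the chromosomes. On chromosomes 6 and 8, 73 of 712 tested copies were higher (10.3%) and 9 lower (1.26%), with medians of 0.38 on chromosome 6 and 0.32 on chromosome 8. The repeat loci of other families on these chromosomes had medians of 0.37 and 0.29. Away from chromosomes 4, 6, 8, 11 and X, 23 of 4326 tested copies were higher (0.532%) and 159 lower (3.68%). Chromosome 11 held 19 of the 118 copies that were higher, while of the 202 that were lower chromosome 4 held 26, chromosome 1 held 24 and chromosome 7 held 21, of 390, 381 and 327 tested copies. Without chromosomes 4, 6, 8, 11 and X in the fit, 26 copies were higher and 89 lower. The number of copies of each chromosome in these lines was not measured here, so its part in the result was not tested.

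In dcIDR, short ERVL copies again did not shift as a family, and the calls were mostly falls. Relative to the median tested locus, 36 copies were higher than in WT (0.607%) and 159 lower (2.68%). Among all tested loci 0.638% were higher and 1.69% lower, 2.33% in all. The median over the 5931 copies was -0.02, the same as over all tested loci. KO and dcIDR were set against the same WT libraries, so both comparisons share any chance deviation of WT. On the deposited spike-in scale, on which the median locus is 0.16 higher in dcIDR, 20 copies were higher and 59 lower. Again the share of all tested loci on that scale is not given. Leaving out any of 6 libraries lowered the total of 195 to 124 or less: 120 and 121 without WT libraries A and B at 40 min, 109 and 114 without those at 60 min, and 124 and 117 without dcIDR libraries A and B at 40 min. Without the 5 libraries with the fewest reads it was 301, of which 66 were higher and 235 lower.

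The strongest fall in dcIDR was at chr13:39004295-39004764 (469 bases). Its normalised level was 11.95 to 37.7 in WT with a median of 17.5, 8.36 to 24.6 in KO with a median of 20.3, and 0 to 7.34 in dcIDR with a median of 2.06. No dcIDR library reached the lowest library of the other genotypes, and the difference from WT was -2.75 ± 0.33 (adjusted p = 1.92e-04). The copy at chr8:44366150-44366640 (490 bases), 1427 bases from a long ERVL locus, had 5.12 to 29.6 in WT, 36.8 to 57.9 in KO and 0 to 7.08 in dcIDR. KO lay above both other genotypes here. The difference from WT was -2.54 ± 0.33 in dcIDR (adjusted p = 3.66e-04) and 1.06 ± 0.33 in KO, which did not pass (adjusted p = 0.0734).

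At chr9:122156540-122156850, 1301 bases from a long ERVL locus, WT had 30.2 to 60.2, KO 37.6 to 70.2 and dcIDR 2.26 to 17.4, a difference of -2.20 ± 0.27 (adjusted p = 2.40e-04). The other 3 of the largest falls were on chromosome 13, at chr13:22209068-22209139 (-2.20 ± 0.21), chr13:120611752-120611904 (-2.17 ± 0.35) and chr13:120374823-120375140 (-2.04 ± 0.19). The last of these had 56.3 to 98.2 in WT, 60.6 to 123 in KO and 12.3 to 46.4 in dcIDR. All 6 falls kept their call with any 1 library left out. A closer look at the window of chromosome 13 from 120 to 121 Mb, chosen after these values were seen, showed 12 tested copies. In dcIDR 10 of them were lower, with a median of -1.62, and in KO 1 was higher, with a median of 0.56. The share of other repeat loci called in this window is not given. Around its copies at chr13:120391111-120392010 and chr13:120600582-120601481, repeats of other families within 10000 bases differed by -1.40 and -1.90 in dcIDR. Copies of 1 window may share transcripts or reads and are not independent of each other.

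Of the 36 rises in dcIDR 12 lay on the X chromosome, where 12 of the 159 tested copies were higher and 3 lower; X and the other chromosomes were not tested against each other. The median there was 0.22, and the repeat loci of other families on X had a median of 0.20. The largest rise was at chrX:98114197-98114659, where WT had 0 to 20.2, KO 3.82 to 17.1 and dcIDR 16.5 to 46.7, a difference of 1.51 ± 0.27 (adjusted p = 0.00511). It was followed by chr14:123072539-123072816 (1.40 ± 0.31), chr1:140578342-140578824 (1.38 ± 0.28), the copy on chromosome 6 named above, chr14:7701517-7702010 (1.32 ± 0.32) and chrX:150816182-150816595 (1.28 ± 0.31). Of these 6 calls, 4 were lost when some single library was left out: chr14:123072539-123072816 with any of 7, chr6:53824854-53825290 with any of 9, chr14:7701517-7702010 with any of 12 and chrX:150816182-150816595 with any of 15 libraries, with adjusted p-values up to 0.0727, 0.0650, 0.0925 and 0.104.

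**Figure D3:**
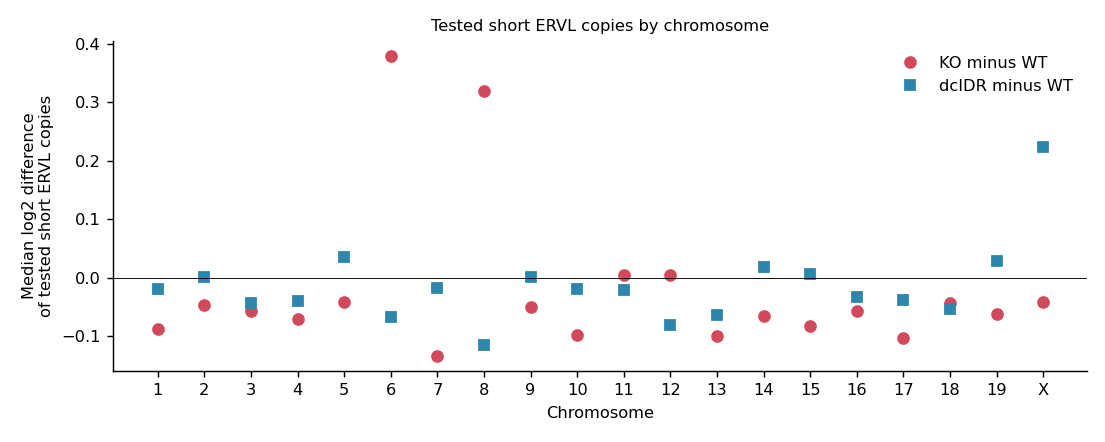
Median log2 difference from WT (y axis) of the tested short ERVL copies of each chromosome (x axis), for KO (circles) and dcIDR (squares). Chromosomes 6 and 8 stand out in KO, at 0.38 and 0.32, and X stands out in dcIDR, at 0.22.

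Short copies beside a long ERVL locus were lower in dcIDR more often than the rest. Of the 92783 loci, 1592 lay within 50 bases of a long ERVL locus, where the LTRs of a longer insertion would be, 657 lay 51 to 1000 bases away and 90534 farther. Reads were found at 77.1% of the first set, 71.1% of the next and 44.5% of the last. Of those tested, 9 of 80 within 50 bases (11.3%) and 12 of 49 at 51 to 1000 bases (24.5%) were lower in dcIDR than in WT, and 0 were higher in either set (by limma at an unadjusted p under 0.05, 23 and 23 were lower and 2 and 2 higher). Over 1000 bases away 138 of 5802 were lower (2.38%) and 36 higher, but of the 88 of these that lay within 10000 bases 17 were lower (19.3%), and among the long ERVL loci 246 of 770 were lower (31.9%) and 1 higher. The median dcIDR difference was -0.26 within 50 bases, -0.40 at 51 to 1000, -0.13 between 1000 and 10000, -0.02 over 1000 and -0.77 among long loci. The difference between the sets has no test of its own, and the higher share of falls did not end at 1000 bases.

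In KO, 2 copies within 50 bases were higher (2.50%) and 4 lower (5.00%), with a median of 0.08, and at 51 to 1000 bases 2 were higher and 2 lower (4.08% each), with a median of 0.24. Over 1000 bases away 114 were higher (1.96%) and 196 lower (3.38%), with a median of -0.02. Long ERVL loci had 5 higher and 5 lower (0.649% each) with a median of 0.21. Within 1000 bases this made 4 higher and 6 lower of 129 with a median of 0.13, and 1 higher and 5 lower with a median of 0.09 without the 5 libraries that had the fewest reads. In the direct comparison of dcIDR with KO, 44 of the 129 were lower (34.1%) and 8 higher (6.20%). Among all tested loci 6.77% were lower and 5.78% higher in that comparison, and 8.60% of short copies over 1000 bases away were lower. Without those 5 libraries 44 of the 129 were lower and 6 higher, with no share of all tested loci given for that fit.

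**Figure D4:**
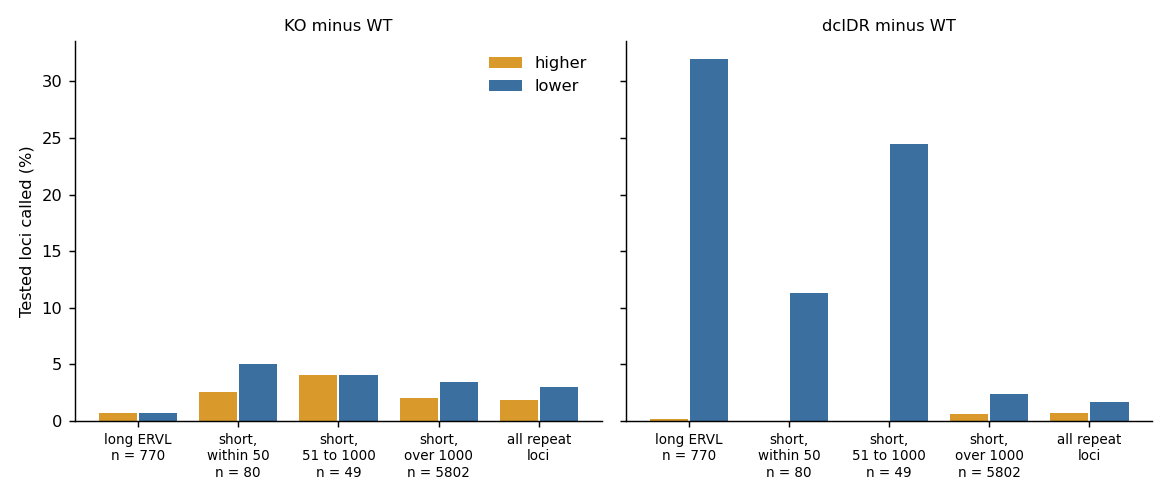
Tested loci called higher or lower than in WT (%, y axis) among long ERVL loci, short copies by their distance in bases to a long ERVL locus, and all tested repeat loci, in KO (left) and dcIDR (right). In dcIDR the bars for lower calls reach 31.9% for long loci, 11.3 and 24.5% for the nearer short copies and 2.38% for the rest, beside 1.69% for all loci.

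As a share of repeat reads, copies beside long ERVL loci were lower in dcIDR at 20, 40 and 60 min. Short copies within 1000 bases took 0.0570 and 0.0805% of the repeat reads of the WT pair at 10 min, then 0.0546 and 0.0621%, 0.0593 and 0.0603%, and 0.0595 and 0.0600% at the later times. For dcIDR these shares were 0.0759 and 0.0730% at first, followed by 0.0433 and 0.0488%, 0.0424 and 0.0441%, then 0.0453 and 0.0462%. For KO they were 0.0594 and 0.0783%, 0.0578 and 0.0791%, 0.0632 and 0.0629%, then 0.0617 and 0.0642%. At 20, 40 and 60 min both dcIDR libraries were below both WT libraries, and at 10 min they fell between them. The log2 difference of dcIDR from WT in this share was 0.14, -0.34, -0.47 and -0.38 at the 4 times. On the spike-in scale the difference of their summed level was -0.52, 0.41, -0.08 and -0.31, so its direction turned at 20 min, and it was 0.007 averaged without 10 min.

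The 5 libraries with the fewest repeat reads held 0.0730 to 0.0805% on these copies, more than any of the other 19, whose shares were 0.0424 to 0.0642%. Both dcIDR libraries at 10 min are among them, so the dcIDR value at that time cannot be told apart from what sets these libraries apart. Among the other 19, WT had 0.0546 to 0.0621%, KO 0.0578 to 0.0642% and dcIDR 0.0424 to 0.0488%. With the 5 libraries left out, 33 of the 129 tested copies were lower in dcIDR with a median of -0.43, in place of 21 and a median of -0.34 with all libraries. Lower calls over all tested short copies also rose in that fit, as given above, so the rise was not confined to these 129. Among the 39 of these copies with a mean level of at least 30, 7 were lower and 1 higher, and the median was -0.12. On the deposited spike-in scale 10 of the 129 were lower and the median was -0.18. The count fell to 13 when WT library A at 60 min or dcIDR library A at 40 min was left out, and to 9 of 103 without chromosomes 4, 6, 8, 11 and X.

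Among the 21 copies within 1000 bases that fell in dcIDR, the largest fall was -1.93 at chr9:122157270-122157658, close to the copy on chromosome 9 named above. Falls of -1.74 at chr8:87411529-87412020 and -1.73 at chr7:138697756-138698247, both 491 bases long, came next. These 3 were picked from the list after its values were seen. The median of the 21 was -1.24.

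A pair of 492-base copies on both sides of 1 long ERVL locus of chromosome 7, picked after their values were seen, went another way. At chr7:83073928-83074420 the normalised level was 200 to 282 in WT with a median of 258 and 130 to 205 in KO with a median of 144; both dcIDR libraries at 10 min had 461 and 454, and the 6 later ones 132 to 230. At chr7:83068004-83068496 it was 32.4 to 89.4 in WT with a median of 60.9 and 24.6 to 41.1 in KO with a median of 31.0, while dcIDR had 131 and 107 at 10 min and 17.7 to 51.8 later. Both copies were lower in KO, by -0.67 ± 0.14 (adjusted p = 0.0109) and -0.80 ± 0.18 (adjusted p = 0.0177). The call of the copy at chr7:83068004-83068496 was lost without KO library A at 40 min (adjusted p = 0.0501), without the 10 min libraries (0.144) and without the 5 libraries with the fewest reads (0.0564), and both calls were lost on the spike-in scale (0.331 and 0.190). In dcIDR their differences were -0.16 and -0.46 and did not pass.

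Short copies mostly moved with the repeats around them. For each tested copy, the reads of all repeats of other families within 10000 bases on either side were summed and compared in the same way. Across the 5931 copies the copy's difference and that of its surroundings had a Pearson correlation of 0.74 in KO and 0.68 in dcIDR; this is across copies within the same libraries, which share depth and neighbours, and is a description. Of the 118 copies higher in KO, 116 lay among repeats that were also higher, and of the 202 lower, 196 among repeats that were lower. In dcIDR it was 36 of 36 and 152 of 159. No such share is given for copies not called. Of the 118, 73 lay on chromosomes 6 and 8, where repeat loci of other families had KO medians of 0.37 and 0.29. The surroundings had more than 50% of the copy's own log2 difference at 96 of the 118, 156 of the 202, 17 of the 36 and 112 of the 159.

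This held for the largest falls. Around the copy at chr7:26101409-26101898, which changed by -3.02 in KO and -1.13 in dcIDR, the other repeats changed by -2.69 and -1.10. Around the pair on chromosome 4 they changed by -2.49 and -2.57 in KO. Around chr13:39004295-39004764 they changed by -1.89 in dcIDR. For the 21 copies beside long ERVL loci that fell in dcIDR, the surrounding repeats of other families had a median of -0.68 and were lower at 20, against a median of -1.24 for the copies. The 21 were chosen for their own fall and their surroundings were not, so the gap between these medians follows partly from the choice. Over all 129 tested copies within 1000 bases of a long locus, the dcIDR medians were -0.34 for the copies and -0.18 for their surroundings. Around the chromosome 7 pair the surroundings differed by 0.71 in KO and by -1.61 and -1.94 in dcIDR, which is not how the copies themselves differed. Whether the copies lie in introns, exons or between genes was not analysed here, and reads that start at a copy and reads that run through it from a nearby gene cannot be told apart in these counts.

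**Figure D5:**
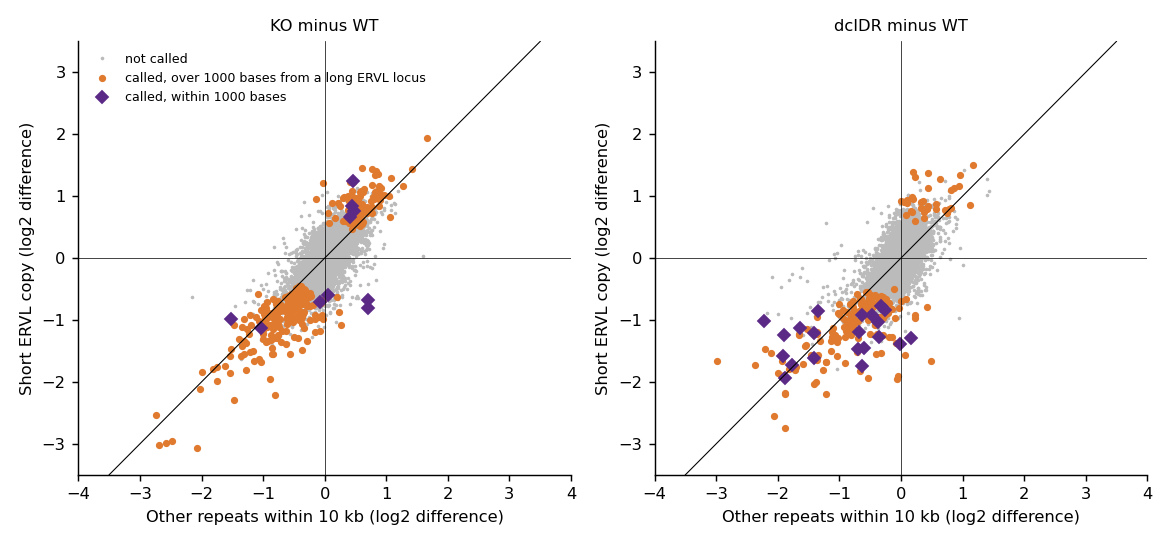
Log2 difference from WT of each tested short ERVL copy (y axis) against that of the repeats of other families within 10 kb of it (x axis), in KO (left) and dcIDR (right), with the line of equal change. Grey points are copies not called, orange points called copies over 1000 bases from a long ERVL locus and purple diamonds called copies nearer to one; the diamonds at 0.71 on the x axis of the KO panel are the chromosome 7 pair.

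Set directly against each other, dcIDR and KO differed at 892 copies. Relative to the median locus, 349 were higher in dcIDR (5.88%) and 543 lower (9.16%), beside 5.78% and 6.77% of all tested loci, 12.5% in all. The median difference was 0.02 over the copies and 0.03 over all tested loci. On the spike-in scale 115 were higher and 531 lower, with no share of all tested loci given on that scale. Over 1000 bases from a long ERVL locus 499 of 5802 were lower. Among the copies called higher in KO than in WT, the median was 0.81 in KO and 0.01 in dcIDR. Those lower in KO had medians of -0.93 and -0.19, and those lower in dcIDR had medians of 0.13 in KO and -1.13 in dcIDR. Each of these groups was chosen by its call in 1 mutant. The size of its median in that mutant follows from this choice, so the gap to the other mutant is no further support.

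With longer labelling, short ERVL copies gained reads at about the pace of other repeats. The slope of the log2 level per doubling of labelling time, relative to the median locus and averaged over genotypes, was above 0 at 933 copies (15.7%) and below 0 at 611 (10.3%). Among all tested loci 15.7% had a slope above and 9.62% below, 25.3% in all, and the median slope was 0.03 in both. On the spike-in scale, where labelled RNA accumulates, 5846 of the 5931 copies had a slope above 0 that passed the test. That count has no share of all tested loci beside it and is not a result about short copies in particular.

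The 3 steepest rises were neighbours on chromosome 14, at chr14:77768159-77768391, chr14:77767509-77767834 and chr14:77767911-77768157, with slopes of 1.23 ± 0.10, 1.11 ± 0.15 and 1.01 ± 0.15 (adjusted p = 1.58e-06, 1.01e-04 and 2.05e-04). In WT the copy at chr14:77768159-77768391 had normalised levels of 20.1 and 2.89 at first, 17.1 and 30.2 by 20 min, 86.9 and 116 by 40 min and 111 and 125 by 60 min. Its WT libraries at 40 and 60 min thus lay above all those at 10 and 20 min. The steepest fall was -0.88 ± 0.12 at chr2:27270768-27271085 (adjusted p = 7.34e-05), where WT had 19.1 and 14.4 at 10 min and 4.46 and 7.40 at 60 min. Slopes of -0.84 ± 0.11 at chrX:158385166-158385560 and -0.79 ± 0.16 at chr6:148815643-148815863 followed. These 3 falls are relative to the median locus: on the spike-in scale their slopes were -0.14, -0.09 and -0.04 and did not pass.

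The longest of the short copies were lower in dcIDR more often. There, 8 of 449 tested copies under 100 bases were lower (1.78%), 35 of 1975 at 100 to 300 bases (1.77%), 26 of 1079 at 300 to 400 (2.41%), 61 of 1992 at 400 to 600 (3.06%), 13 of 257 at 600 to 1000 (5.06%) and 16 of 179 at 1000 to 2000 (8.94%). Counting only copies over 1000 bases from a long ERVL locus, 7 of 240 at 600 to 1000 bases (2.92%) and 14 of 155 at 1000 to 2000 bases (9.03%) were lower. The differences between length classes have no test of their own, and longer copies gather more reads. In KO the counts from the shortest to the longest class were 9, 64, 34, 77, 13 and 5 lower and 6, 31, 26, 47, 5 and 3 higher. Of the 121 tested copies of 491 or 492 bases, 11 were lower in dcIDR (9.09%) and 0 higher (27 and 11 by limma at an unadjusted p under 0.05). In KO 12 were lower (9.92%) and 3 higher (2.48%). Among tested short copies of other lengths 2.55% were lower and 0.620% higher in dcIDR, and 3.27% and 1.98% in KO. Of the 45 copies of 491 or 492 bases within 1000 bases of a long locus, 6 were lower in dcIDR and 3 in KO. Of the 76 farther away, 5 and 9 were lower. Just under the limit of 2000 bases, the longest tested copies of 1940, 1965, 1967 and 1987 bases had dcIDR differences of -0.26, -0.72, -1.91 and 0.45. Just above it, loci of 2013, 2027, 2029 and 2040 bases had 0.32, -0.61, 0.24 and -2.13.

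Genes of the 2-cell-like state were measured in the same libraries. Of 30 listed genes 20 were tested, relative to the median of 22447 tested genes. In KO 11 were higher and 3 lower, beside 14.9% higher and 15.9% lower among all genes, and the median was 0.71. In dcIDR 19 were lower, beside 15.5% of all genes, and the median was -1.84; the remaining gene, Arg2, had -0.66 and did not pass. Zscan4c, a zinc finger gene of the 2-cell stage, had a normalised level of 168 to 299 in WT, 402 to 517 in KO and 62.2 to 74.5 in dcIDR. The 3 genotypes did not overlap, and the differences were 0.86 ± 0.09 (adjusted p = 4.44e-06) and -1.86 ± 0.09 (adjusted p = 1.13e-08). The deubiquitinase gene Usp17lb differed by 1.15 in KO and -2.02 in dcIDR. The exceptions in KO were Pramel6, Pramel7 and Sp110, which fell by 0.44, 0.81 and 0.53 on the log2 scale; against the spike-in 14 of the 20 were higher in KO and 1 lower. Zscan4 and Usp17l genes are families of near-identical copies whose reads may have been shared out between them.

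Genes that silence or activate ERVL were listed too. Of these 23, 4 were higher and 9 lower in KO and 1 higher and 13 lower in dcIDR, beside 14.9% higher and 15.9% lower of all genes in KO and 10.7% and 15.5% in dcIDR. On the spike-in scale 4 genes in KO and 1 in dcIDR passed, all of them higher, beside 22.3% and 5.73% of all genes. Trim28 and Setdb1, the corepressor and the histone methyltransferase that silence endogenous retroviruses, differed by -0.27 ± 0.05 and -0.25 ± 0.04 in KO and by -0.31 ± 0.05 and -0.24 ± 0.04 in dcIDR, calls that rest on the scale. Zfp42, a repressor of MERVL that is also a stem cell marker, differed by 0.25 ± 0.04 in KO and by -0.34 ± 0.04 in dcIDR on the median scale; the dcIDR call did not pass on the spike-in scale. Dux (listed as Duxf3) had too few reads to be tested, with a normalised level of at most 8.39 in WT, 10.6 in KO and 3.43 in dcIDR.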

How the data were processed

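EU-labelled RNA was measured in 24 libraries. Per the submitters' processing notes, HISAT2, SAMtools, Picard and the build GRCm39 were used. Tool versions, read counter, strand use, repeat annotation and the handling of multi-mapping reads were not given in the sources used here, so reads of near-identical copies are uncertain. The values deposited by the authors are log2 ratios of each genotype at 20, 40 or 60 min to 10 min, scaled to spike-in reads with both libraries combined; 0 value columns could not be mapped, and columns headed ki were taken as dcIDR, the remaining genotype. Read counts were recovered from these ratios for 100% of repeat lines (largest relative error 2.89e-15) and 1 gene line stayed unsolved. Not every line was divided into whole reads of each library. On long ERVL loci in WT at 60 min, for example, libraries A and B had sums of 68635.92 and 79329.22 reads. Library values of such lines are less certain. On simulated data all 8 libraries of a genotype came out right in at least 99.8% of loci with a mean of 100 reads; higher means were not simulated. Each member had 1 clear solution.

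Levels were fitted as log2(level + 1), which understates changes of low loci, with limma 3.58.1 in R 4.3.3: 12 group means, all libraries, relative to the median tested locus of each library, Benjamini-Hochberg over 306027 loci, threshold 0.05. A genotype difference is the mean over the 4 times. On simulated data for KO minus WT, run on 306027 loci, 34% of 100 loci changed 2-fold and 100% of 100 changed 4-fold were called, with 4 false calls. The simulation gave every locus the same fixed spread and drew libraries independently, so these rates need not hold for the real libraries. Read depth limits precision, and since mates may have been counted separately no counting intervals are given. Named copies are the 6 highest, the 6 largest rises and falls in each mutant past the threshold with 1 sign at all 4 times, and the 3 steepest slopes each way. Members and lists were chosen with earlier results of these data known. Locus names give 1-based starts, so a span is 1 base longer than the length used. Alternatives were other scales, pseudocounts, filters, normalizations, left-out libraries, times and chromosomes. Copies were not placed in genes, and no sequences were read.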

Additional observations from a re-analysis of the deposited data

Results flagged for a closer look

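At 9 copies the mutants moved in opposite directions, each passing limma's test: KO was higher than WT and dcIDR lower. The share of all tested loci with such opposite calls is not given here, so this count has no background beside it. The direct difference, dcIDR minus KO, is the sum of both gaps, so its size and its passing at all 9 (adjusted p-values from 4.43e-08 to 3.72e-05) follow from how the copies were chosen and are no further support. It was -3.30 at chr11:17202897-17203423, -1.70 at chr6:47158365-47158553, -1.71 at chr17:29008812-29009145, -1.42 at chr11:11791481-11791760, -1.68 at chr6:125421579-125421661, -2.56 at chr6:149122380-149122853, -1.49 at chr6:113667217-113667644, -2.56 at chr13:120601482-120601968 and -2.39 at chr6:50549258-50549505. Of these, 5 were on chromosome 6 and 2 on chromosome 11. All tested repeat loci of other families on chromosome 6 had medians of 0.37 in KO and -0.09 in dcIDR. Repeats of other families within 10000 bases were higher in KO and lower in dcIDR around all 9, for example by 1.07 and -1.90 at chr13:120601482-120601968, where the copy differed by 0.67 and -1.89. At chr11:17202897-17203423 they differed by 0.86 and -0.53, and the copy by 1.36 and -1.93. The KO call of that copy was lost when any of 9 libraries was left out. Both comparisons share the WT libraries.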

How the results depend on the processing

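Counts of called copies depended on the settings. For KO minus WT the 320 calls became 539 with a pseudocount of 5, 491 with a trended prior variance, 27 with no filter and 115 without chromosomes 4, 6, 8, 11 and X, and leaving out 1 library gave 192 to 433. For dcIDR minus WT the 195 calls became 79 on the deposited spike-in scale, 293 with a pseudocount of 5, 318 with the trended prior, 126 with no filter, 99 without those chromosomes and 301 without the 5 libraries with the fewest reads, and leaving out 1 library gave 109 to 291. For dcIDR minus KO the 892 calls became 407 without those chromosomes, with 678 to 1024 when 1 library was left out. The 1544 slope calls became 5846 on the spike-in scale, 960 under a minimum mean level of 30 and 9413 with no filter, with 1265 to 1642 when 1 library was left out. Fewer or more loci are tested under another filter or without chromosomes. The cause of the other changes was not tested, and shares of all tested loci under these settings are not given here. The trended prior, the fit without the 5 libraries and the counts without copies near long loci were chosen after seeing the data. Those counts come from the main fit.

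The summed KO difference of 0.31 was 0.0051 as a share of repeat reads and -0.011 relative to the median locus, and leaving out 1 library gave 0.22 to 0.40; for dcIDR it gave 0.027 to 0.21. Without the 10 min libraries the sums differed by 0.18 in KO and 0.39 in dcIDR. Calls of silencing and activating genes fell from 13 to 4 in KO and from 14 to 1 in dcIDR on the spike-in scale. For named copies, 263 of 308 alternative values stayed on the same side of the threshold with the same sign, 45 no longer passed and 0 changed sign. Most named copies were picked for large differences or slopes, so their kept signs follow from that choice and are no further support. No paired analysis was possible because the columns carry no replicate numbers and the libraries of a group cannot be matched to them. Depth limits many copies: 18328 of 41994 had under 10 reads in all.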
